A study of Mus musculus with 72 samples.

Results

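The genes of the urea cycle and of ammonia supply described here are 9 of the 20105 in the count table, found by their symbols: Cps1, Otc, Ass1, Asl, Arg1, Nags, Slc25a15, Gls2 and Glud1. RNA was counted in nuclei of 36 mouse livers, where each animal gave 1 library from hepatocyte and 1 from whole liver nuclei, 72 libraries in 18 groups of 4 animals. All animals carried the Hep-INTACT genotype, CAG-Sun1/sfGFP with Albumin-Cre, which puts a fluorescent tag on the nuclear membrane of cells that express the albumin promoter, so that beads can bind hepatocyte nuclei. The C26 cohort (BALB/c) held animals with C26 tumours at a pre-cachexia stage, animals with C26 tumours at cachexia, and PBS animals. The 8025 cohort (C57BL/6N) held animals with 8025 tumours at cachexia and PBS animals. C26 and 8025 cachexia livers were taken after more than 10% of body weight was lost. Zeitgeber time is recorded here as 9 h for all 72 libraries, though the design text may cover the C26 and 8025 animals only. The NC26 cohort (BALB/c) and the MC38 cohort (C57BL/6N) held animals with weight-stable tumours and PBS animals. Age and sex are not in the labels.

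The urea cycle turns ammonia, which is toxic, into urea, and runs in full mainly in periportal hepatocytes. Ammonia and bicarbonate enter through carbamoyl phosphate synthetase in the mitochondrion, ornithine is carried in and citrulline out, and the remaining steps release urea and ornithine in the cytosol. Hepatocytes around the portal vein feed the cycle with ammonia from glutamine and glutamate, and hepatocytes around the central vein capture what escapes as glutamine.

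All 9 genes passed the filter on low counts in both fractions. Their positions are on mm10. Nags (11:102145513-102149528, plus strand) makes N-acetylglutamate, the activator of Cps1, and Cps1 (1:67123027-67231267, plus) makes carbamoyl phosphate. Otc (X:10252305-10321024, plus) joins carbamoyl phosphate and ornithine to citrulline, and Slc25a15 (8:22375550-22398621, minus) carries ornithine and citrulline across the inner mitochondrial membrane. Ass1 (2:31470270-31520670, plus) joins citrulline and aspartate, Asl (5:130011503-130024331, minus) releases arginine and fumarate, and Arg1 (10:24915207-24927470, minus) splits arginine into urea and ornithine. Gls2 (10:128194635-128210004, plus) is the liver glutaminase and Glud1 (14:34310727-34345033, plus) is glutamate dehydrogenase. Counting covered the whole gene span, introns included, in 8 of the 9. For Ass1 only 79 of 50401 bases were counted, and its libraries held 2 to 69 counts in hepatocyte nuclei, so its values are imprecise. Gls2 overlaps Spryd4 by 95 bases, and how strand was used in counting is not stated in the sources used here.

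Promoter windows of 300 bases, from 250 before to 50 after a transcript start, were found in RefSeq tables for 5 of the 9 genes (build GRCm38.p6). They are shown for Slc25a15 and Otc, the genes with a window that changed in a tumour comparison below, and for Nags, the only one of the 5 with a match to a searched motif. The Slc25a15 window (chr8:22398572-22398871, minus strand) lies at the start of the counted transcript, the Otc window is chrX:10252055-10252354 (plus) and the Nags window is chr11:102145263-102145562 (plus). Capitals mark the motif match.
Slc25a15: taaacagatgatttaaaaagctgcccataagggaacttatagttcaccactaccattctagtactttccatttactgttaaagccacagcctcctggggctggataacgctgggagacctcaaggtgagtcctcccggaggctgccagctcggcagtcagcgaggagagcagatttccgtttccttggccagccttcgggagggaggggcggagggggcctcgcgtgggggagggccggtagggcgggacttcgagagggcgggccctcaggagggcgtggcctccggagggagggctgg
Otc: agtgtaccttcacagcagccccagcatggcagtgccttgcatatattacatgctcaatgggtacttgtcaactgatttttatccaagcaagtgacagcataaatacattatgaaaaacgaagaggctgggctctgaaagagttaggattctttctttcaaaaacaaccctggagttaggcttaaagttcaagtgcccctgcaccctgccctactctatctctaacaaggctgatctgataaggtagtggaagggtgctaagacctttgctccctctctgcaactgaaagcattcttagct
Nags: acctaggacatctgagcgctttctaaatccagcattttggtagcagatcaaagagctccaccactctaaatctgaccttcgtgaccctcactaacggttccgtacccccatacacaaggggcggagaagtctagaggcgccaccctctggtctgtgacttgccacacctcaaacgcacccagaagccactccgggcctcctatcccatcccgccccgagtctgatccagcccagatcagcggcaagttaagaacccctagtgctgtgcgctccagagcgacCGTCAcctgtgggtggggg
Motifs were searched on both strands by their letters: a TATA box (TATAAA), a C/EBP site (TTGCNNAA), a core of the cAMP response element (TGACG), a core of the glucocorticoid receptor site (AGAACA), an HNF4 site (CAAAGTC) and a STAT site (TTCCNGGAA). The match in Nags is the cAMP response element core, read on the minus strand 31 bases after the start. Of 32851 such windows, 20.8% held that core, 13.6% the TATA box, 10.8% the C/EBP site, 19% the glucocorticoid receptor core, 4.44% the HNF4 site and 1.15% the STAT site. The base composition of the windows differed, with 44.3% G and C in Otc, 57.7% in Nags, 60.7% in Slc25a15, 74% in Ass1 and 81% in Glud1. A second Slc25a15 window, from another transcript start, held 79%.

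Total counts, in units of 1e6, ran from 8.49 to 56.4 per library in hepatocyte nuclei (median 26.1) and from 12.2 to 30.3 in whole liver nuclei (median 20.1). Defining hepatocyte markers such as Alb, Apoa1 and Ttr were detected in each group, and the summed level of 10 sinusoidal endothelial markers in C26 PBS animals was 186.2 to 322.1 CPM (counts scaled to a common library total of 1e6) in hepatocyte nuclei, against 1261 to 1384 CPM in whole liver nuclei. Hepatocyte library C26 PBS 1 stood apart: 5 genes that collect rRNA-like reads took 7% of its counts. Other hepatocyte libraries of its group had 2.06% to 3.51%. The whole liver library of the same animal stood apart the other way, at 1.09%, against 5% to 7.33% in the others of its group. Results that rest on it are given with and without it. Each replicate is a separate animal. Levels are CPM, errors are SD over animals, and every adjusted p is from the quasi-likelihood test of edgeR over all genes tested, called at 0.05.

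In the 16 PBS animals the levels in hepatocyte nuclei, per kilobase of counted length, were highest for Cps1, at 56.3 ± 11 CPM per kilobase (SD, n = 16). Arg1 followed at 43.4 ± 9.95 and Asl at 34 ± 14.3 CPM per kilobase (SD, n = 16). Glud1 (18.7 ± 4.83) and Gls2 (15 ± 4.6), which supply ammonia from glutamate and glutamine, came next (CPM per kilobase, SD, n = 16). Slc25a15 held 8.35 ± 2.22 and Otc 6.96 ± 1.93 CPM per kilobase, and Nags, the source of the activator, was lowest at 3.81 ± 1.14 (SD, n = 16). By this measure Cps1 stood at the 99.7th percentile of tested genes and Nags at the 89.3rd. Ass1 gave 9.26 ± 5.25 CPM per kilobase over its 79 bases (SD, n = 16). In whole liver nuclei Cps1 was again highest, at 56.4 ± 13 CPM per kilobase, and Nags lowest, at 2.94 ± 0.782 (SD, n = 16). Otc (7.23 ± 2.44) and Slc25a15 (7.2 ± 1.67 CPM per kilobase) were nearly level there (SD, n = 16).

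Across the 9 groups of hepatocyte nuclei, mean levels of a gene differed between the highest and the lowest group by 1.64 times (Glud1) to 3.45 times (Ass1). Cps1 was highest in C26 cachexia (8758 CPM) and lowest in C26 pre-cachexia (2979 CPM). C26 pre-cachexia was also the lowest group for Arg1, Slc25a15, Gls2 and Glud1. Otc was highest in NC26 tumour animals (739 CPM) and lowest in 8025 cachexia (277.4 CPM), and Nags was highest in MC38 PBS animals (18.21 CPM) and lowest in NC26 tumour animals (10.22 CPM). With the groups ordered by their mean, the libraries of every neighbouring pair overlapped for all 9 genes in hepatocyte nuclei. In whole liver nuclei 1 neighbouring pair did not overlap, for Gls2.

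**Figure D1:**
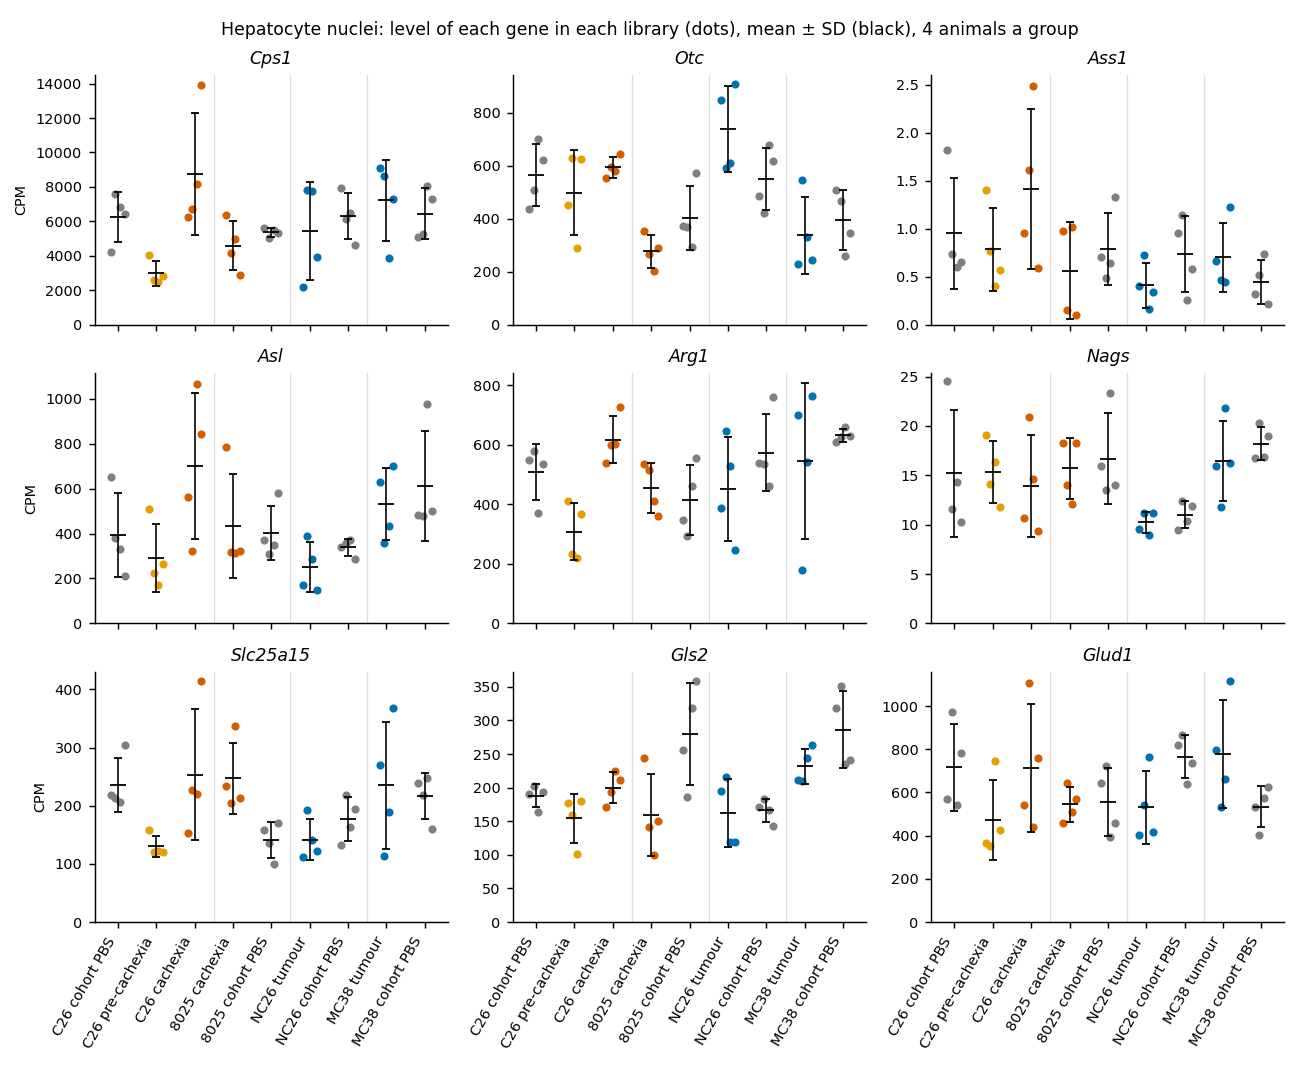
Level of each of the 9 genes (CPM, vertical axes from 0) in every hepatocyte nuclei library, by group; dots are libraries and black bars are mean ± SD of 4 animals. Cps1 is lowest in C26 pre-cachexia, at 2452 to 4049 CPM, and the Ass1 axis ends near 2.5 CPM because 79 bases were counted.

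The C26 cohort holds the only stage series and asks how the pathway stood before and after weight was lost. At pre-cachexia Cps1 was about 2-fold below PBS animals in both fractions, and Slc25a15 and Arg1 were lower without passing the threshold. At cachexia 4 genes, Cps1, Slc25a15, Asl and Arg1, were higher than at pre-cachexia in both fractions, by 1.94 to 2.94 times in hepatocyte nuclei. Set against PBS animals, the 1 gene called at cachexia was Asl, higher in whole liver nuclei (adjusted p = 0.049). That call was lost in 6 of 8 fits with an animal left out. With 4 animals a group, a missed threshold does not show that the other genes were unchanged.

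Cps1, the entry enzyme, had 4223, 7580, 6858 and 6420 CPM in hepatocyte nuclei of PBS animals 1 to 4. Pre-cachexia animals had 4049, 2582, 2452 and 2834 CPM, and cachexia animals 6249, 6692, 8153 and 13940 CPM. No pre-cachexia library reached a PBS or a cachexia library, while PBS and cachexia libraries overlapped. Cps1 fell to 2979 ± 730.6 CPM at pre-cachexia, against 6270 ± 1446 CPM in PBS animals (SD, n = 4 each; log2 fold change -1.07, SE 0.322, adjusted p = 0.036). It was the 1 gene of the 9 called in that comparison, in which 7.72% of all genes tested were called, 2.94% as lower. Against pre-cachexia, Cps1 rose 2.94-fold at cachexia (log2 fold change 1.56, SE 0.326, adjusted p = 0.0021). Whole liver nuclei of PBS animals had 8072, 8154, 6939 and 5383 CPM, pre-cachexia animals 4928, 2413, 2835 and 2582 CPM and cachexia animals 6752, 7378, 9273 and 12310 CPM. The pre-cachexia libraries were again below all others, with a 2.24-fold fall against PBS animals (log2 fold change -1.16, SE 0.331, adjusted p = 0.019; 12.8% of genes tested were called, 4.04% as lower) and a level 2.8-fold higher at cachexia than at pre-cachexia (adjusted p = 0.0032).

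Slc25a15, the ornithine carrier, had 218.4, 213.7, 205.7 and 305.1 CPM in hepatocyte nuclei of PBS animals, 157.6, 121, 122.6 and 120 CPM at pre-cachexia and 152.3, 226.4, 219.7 and 414.2 CPM at cachexia. The pre-cachexia libraries lay below all PBS libraries, and cachexia animal 4 was the highest library of the cohort. The log2 fold change of pre-cachexia against PBS animals was -0.86 (SE 0.277, adjusted p = 0.053), just outside the threshold, and that of cachexia against pre-cachexia was 0.96 (SE 0.278, adjusted p = 0.026). Pre-cachexia libraries of whole liver nuclei held 85.17 to 130.3 CPM, below the 157.5 to 221.6 CPM of PBS libraries, with a log2 fold change of -0.77 (adjusted p = 0.053). Cachexia libraries there held 128.4 to 357 CPM and were higher than at pre-cachexia (log2 fold change 1.04, SE 0.268, adjusted p = 0.01).

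Arg1, which releases the urea, had 550.4, 581, 369.8 and 535.6 CPM in PBS hepatocyte nuclei, 409.9, 232.4, 220.3 and 367.8 CPM at pre-cachexia and 539.8, 601.4, 604.5 and 727 CPM at cachexia. All cachexia libraries were above all pre-cachexia libraries, and the log2 fold change was 1.01 (SE 0.301, adjusted p = 0.03; 1.02 and 0.029 in whole liver nuclei). Against PBS animals the pre-cachexia log2 fold change was -0.73 in hepatocyte nuclei (adjusted p = 0.13) and -0.82 in whole liver nuclei (adjusted p = 0.075). Asl, the lyase before it, had 650.4, 380.8, 329.8 and 212.1 CPM in PBS hepatocyte nuclei, 507.5, 222.4, 168.9 and 262.7 CPM at pre-cachexia and 561.8, 322.8, 1067 and 843.4 CPM at cachexia. Its libraries overlapped between all 3 groups, with cachexia animals 3 and 4 the highest. Asl was higher in hepatocyte nuclei at cachexia than at pre-cachexia (log2 fold change 1.27, SE 0.393, adjusted p = 0.037) and in the whole liver fraction (1.43, SE 0.356, adjusted p = 0.0074).

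The count of 4 genes called higher and 0 lower at cachexia against pre-cachexia compares with 9.09% of all genes tested called in hepatocyte nuclei (4.81% as higher) and 11.6% in whole liver nuclei (4.68% as higher). The median log2 fold change of the 9 genes was 0.844 in hepatocyte nuclei, beside -0.011 for all genes tested, and 0.553 in whole liver nuclei, beside -0.032. That hepatocyte median is the value of Ass1, which is imprecise. The values next to it were 0.96 (Slc25a15) and 0.59 (Glud1). At pre-cachexia against PBS animals 8 of the 9 log2 fold changes were below 0, with a median of -0.438 beside 0.011 for all genes (-0.479 beside 0.025 in whole liver nuclei). These comparisons share the pre-cachexia animals, and both comparisons with PBS animals share those. Nags had log2 fold changes between -0.14 and 0.14 in the 4 tests that used the pre-cachexia animals. Without hepatocyte library C26 PBS 1, Nags had 0.33 (adjusted p = 0.34) at pre-cachexia against PBS animals. Glud1 had -0.60 (adjusted p = 0.18) at pre-cachexia against PBS animals and 0.59 (adjusted p = 0.2) at cachexia against pre-cachexia in hepatocyte nuclei, and pre-cachexia animal 3, at 746.3 CPM, was above the other 3 (350.4 to 426.8 CPM). Otc, Gls2 and Ass1 passed no test in these comparisons, with log2 fold changes of -0.18, -0.28 and -0.27 at pre-cachexia against PBS animals in hepatocyte nuclei.

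Without hepatocyte library C26 PBS 1, the fall of Cps1 at pre-cachexia was -1.24 (adjusted p = 0.018) and that of Slc25a15 -0.90 (adjusted p = 0.047). Cps1 missed the threshold in hepatocyte nuclei without any one of PBS animals 2, 3 and 4 or pre-cachexia animals 2, 3 and 4 (adjusted p up to 0.097), and in whole liver nuclei without PBS animal 1 or pre-cachexia animal 2 or 4 (up to 0.068). In the comparison of cachexia with pre-cachexia, Cps1 stayed past the threshold whichever animal was left out (adjusted p up to 0.026 and 0.021). Slc25a15 missed it in hepatocyte nuclei without pre-cachexia animal 2 or 4 or cachexia animal 4 (log2 fold change down to 0.59, adjusted p up to 0.25) and in whole liver nuclei without cachexia animal 4 (0.088). Arg1 missed it without pre-cachexia animal 2 or 3 or cachexia animal 3 or 4 in both fractions, and without cachexia animal 2 in whole liver nuclei (adjusted p up to 0.12 and 0.13), and Asl in hepatocyte nuclei without pre-cachexia animal 2, 3 or 4 or cachexia animal 3 or 4 (up to 0.15). Glud1 passed it in both comparisons without pre-cachexia animal 3 (adjusted p = 0.037 in each, in hepatocyte nuclei).

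**Figure D2:**
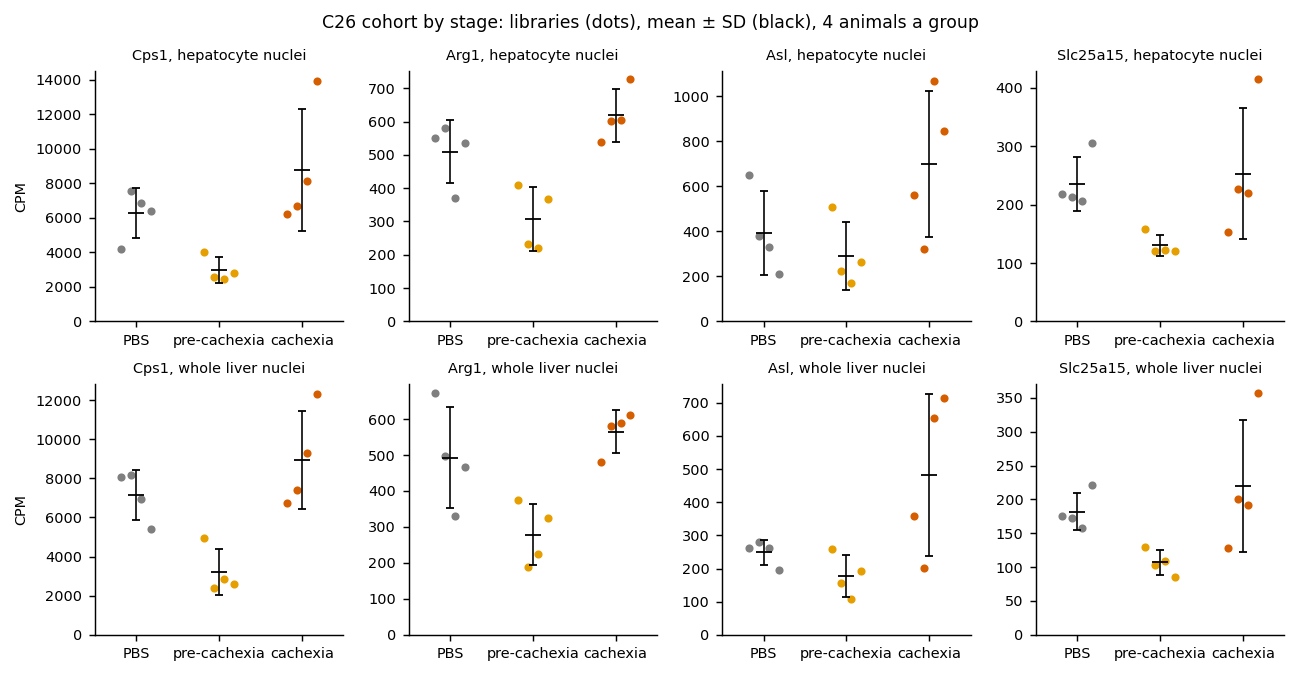
Level (CPM, axes from 0) of Cps1, Arg1, Asl and Slc25a15 in the C26 cohort at each stage, in hepatocyte nuclei (upper panels) and whole liver nuclei (lower panels); dots are libraries and black bars mean ± SD of 4 animals. Pre-cachexia libraries of Cps1 lie below all PBS and all cachexia libraries in both fractions.

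Against PBS animals, C26 cachexia livers showed 0 of the 9 genes called by edgeR in hepatocyte nuclei, where 22.2% of all genes tested were called. Asl was the 1 gene with an unadjusted p under 0.05, and DESeq2 called 0. Cps1 averaged 8758 ± 3548 CPM at cachexia and 6270 ± 1446 CPM in PBS animals (SD, n = 4 each; log2 fold change 0.48, 95% interval -0.14 to 1.11). Without C26 PBS 1 the log2 fold change of Cps1 was 0.32 (SE 0.341, adjusted p = 0.53). Asl averaged 698.8 ± 324.9 CPM at cachexia and 393.3 ± 185.4 CPM in PBS animals (SD, n = 4 each; log2 fold change 0.83, SE 0.389, adjusted p = 0.13). Its PBS library 1, at 650.4 CPM, was the highest of its group, and without it the log2 fold change was 1.17 (SE 0.415, adjusted p = 0.04). Asl in whole liver nuclei had 358.7, 200.6, 655.7 and 714.2 CPM at cachexia, against 261, 280.5, 261 and 194.5 CPM in PBS animals. Cachexia animal 2 was within the PBS range and the other 3 were above it, and Asl was called higher (log2 fold change 0.95, SE 0.352, adjusted p = 0.049; 22.1% of genes tested were called). That call was lost without any one PBS animal or without cachexia animal 3 or 4 (adjusted p up to 0.19). The median of the 9 log2 fold changes was 0.103 in hepatocyte nuclei, beside 0.00028 for all genes.

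Other genes of nitrogen handling were taken from 5 lists of 51 genes in all. Of the ammonia and glutamine genes, 2 of 11 tested rose at C26 cachexia in hepatocyte nuclei and 0 fell. Counts in these lists stand beside 22.2% of all genes tested called in that comparison, and nothing particular to a list is read from them. Glul, the glutamine synthetase of pericentral hepatocytes, rose to 188.9 ± 10.7 CPM at cachexia, against 114.4 ± 11.4 CPM in PBS animals (SD, n = 4 each; log2 fold change 0.72, SE 0.208, adjusted p = 0.012). Slc1a2, a glutamate transporter, also rose (0.58, adjusted p = 0.047), but not without C26 PBS 1 (0.48, adjusted p = 0.14), which left 1 of 11 higher. The median of that list was 0.476, beside 0.00028 for all genes. Of 7 transaminase and cycle carbon genes 1 rose, Got1, the cytosolic aspartate aminotransferase, at 598.5 ± 361.3 CPM at cachexia and 60.21 ± 29.27 CPM in PBS animals (SD, n = 4 each; log2 fold change 3.31, SE 0.637, adjusted p = 0.00032). Of 8 genes of mitochondrial transport and bicarbonate, 1 rose and 1 fell, both aspartate and glutamate carriers: Slc25a12 had a log2 fold change of 0.78 (adjusted p = 0.00035) and Slc25a13, the liver form citrin, of -0.63 (adjusted p = 0.013). Of 12 arginine, ornithine and proline genes 1 rose, Arg2, the mitochondrial arginase, at 1.415 ± 0.561 CPM at cachexia and 0.419 ± 0.182 CPM in PBS animals (SD, n = 4 each; adjusted p = 0.017).

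Of 10 transcriptional regulators of urea cycle genes, 1 rose and 2 fell at C26 cachexia in hepatocyte nuclei. Ppargc1a, a coactivator of fasting metabolism, averaged 310.7 ± 148.6 CPM at cachexia and 122.1 ± 25.4 CPM in PBS animals (SD, n = 4 each; log2 fold change 1.35, adjusted p = 0.0095). Cebpa, a hepatocyte transcription factor known to drive urea cycle genes in mouse liver, fell to 12.47 ± 3.77 CPM at cachexia, against 28.72 ± 11.7 CPM in PBS animals (SD, n = 4 each; log2 fold change -1.20, SE 0.272, adjusted p = 0.0017). Creb3l3, a membrane-bound factor of the liver, had a log2 fold change of -0.98 (adjusted p = 0.00015). At pre-cachexia 1 regulator of the 10 was called, Foxo1, a target of insulin signalling, which fell (-0.75, SE 0.198, adjusted p = 0.018), and 0 genes were called in the other 4 lists in hepatocyte nuclei. In the whole liver fraction Foxo1 was also called, with Aldh18a1 higher (1.06, adjusted p = 0.013) and Odc1 lower (-0.73, adjusted p = 0.016) in the arginine list. Against pre-cachexia, Foxo1 was higher at cachexia (0.79, adjusted p = 0.0093), as were Ppargc1a (1.28, adjusted p = 0.027) and Got1 (2.45, adjusted p = 0.0096), and Cebpa (-1.51, adjusted p = 0.00049) and Creb3l3 (-0.75, adjusted p = 0.0059) were lower. Aqp8, a water and ammonia channel, was lower at cachexia than at pre-cachexia in both fractions (-1.78, adjusted p = 0.0093, and -1.80, adjusted p = 0.016), and Aldh4a1 was lower in hepatocyte nuclei (-0.63, adjusted p = 0.022). Without C26 PBS 1, at cachexia against PBS animals, Glul (0.78, adjusted p = 0.015), Got1 (3.23, adjusted p = 0.0018), Ppargc1a (1.23, adjusted p = 0.031), Cebpa (-0.93, adjusted p = 0.012) and Creb3l3 (-0.67, adjusted p = 0.00096) were still called. Slc25a12 (0.65), Slc25a13 (-0.73) and Arg2 (2.04) were too, and so was Foxo1 at pre-cachexia (-0.76, adjusted p = 0.02). Cebpb, an acute-phase factor, was at 0.68 (adjusted p = 0.1) at cachexia with all animals and was called higher without C26 PBS 1 (0.99, adjusted p = 0.022), which made 2 regulators higher and 2 lower.

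Markers of some other cells moved with the C26 groups. The summed level of 10 macrophage markers in hepatocyte nuclei was 45.87 to 75.5 CPM in PBS animals, 76.67 to 96.97 CPM at pre-cachexia and 81.11 to 118.8 CPM at cachexia, with 6 of the 10 called higher at pre-cachexia and 6 at cachexia against PBS animals (6 and 8 without C26 PBS 1), and 0 of the 10 at 0 in any of the 3 groups. Endothelial markers summed to 186.2 to 322.1 CPM in PBS animals and 284.6 to 410.8 CPM at cachexia. Of these 10 markers 2 were called higher at cachexia (4 without C26 PBS 1). Stellate sums overlapped, at 75.82 to 100.6 CPM in PBS animals and 69.28 to 95.01 CPM at cachexia, with 1 of 8 called higher. Cholangiocyte sums also overlapped, at 60.32 to 167.5 and 71.83 to 198.3 CPM, with 1 of 7 called higher. At cachexia 1 of 5 lymphocyte markers tested was called lower (0 without C26 PBS 1). Of 4 monocyte and neutrophil markers tested 2 were called higher (3 without it). The summed level of 7 hepatocyte markers was 7424 to 8351 CPM in PBS animals, 5951 to 7992 CPM at pre-cachexia and 8186 to 11530 CPM at cachexia. Single hepatocyte markers went both ways at cachexia against PBS animals, with 2 of 7 called higher and 2 lower. Without C26 PBS 1 these were Apoa1 and Fgb higher and Cyp3a11 and Ttr lower. The part of these markers in the changes of Cps1, Slc25a15, Arg1 and Asl was not tested, and in bulk nuclei fewer cells of a type and less RNA per cell cannot be told apart. Of 10 periportal genes outside the pathway 3 were called higher and 2 lower at cachexia against PBS animals, and of 12 pericentral genes, which include Glul and Slc1a2, 3 higher and 2 lower. Without C26 PBS 1 the counts were 2 higher and 2 lower in each of these lists. At pre-cachexia against PBS animals 1 periportal gene, Etnppl, was called lower and 0 of the 12 pericentral genes were called.

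**Figure D3:**
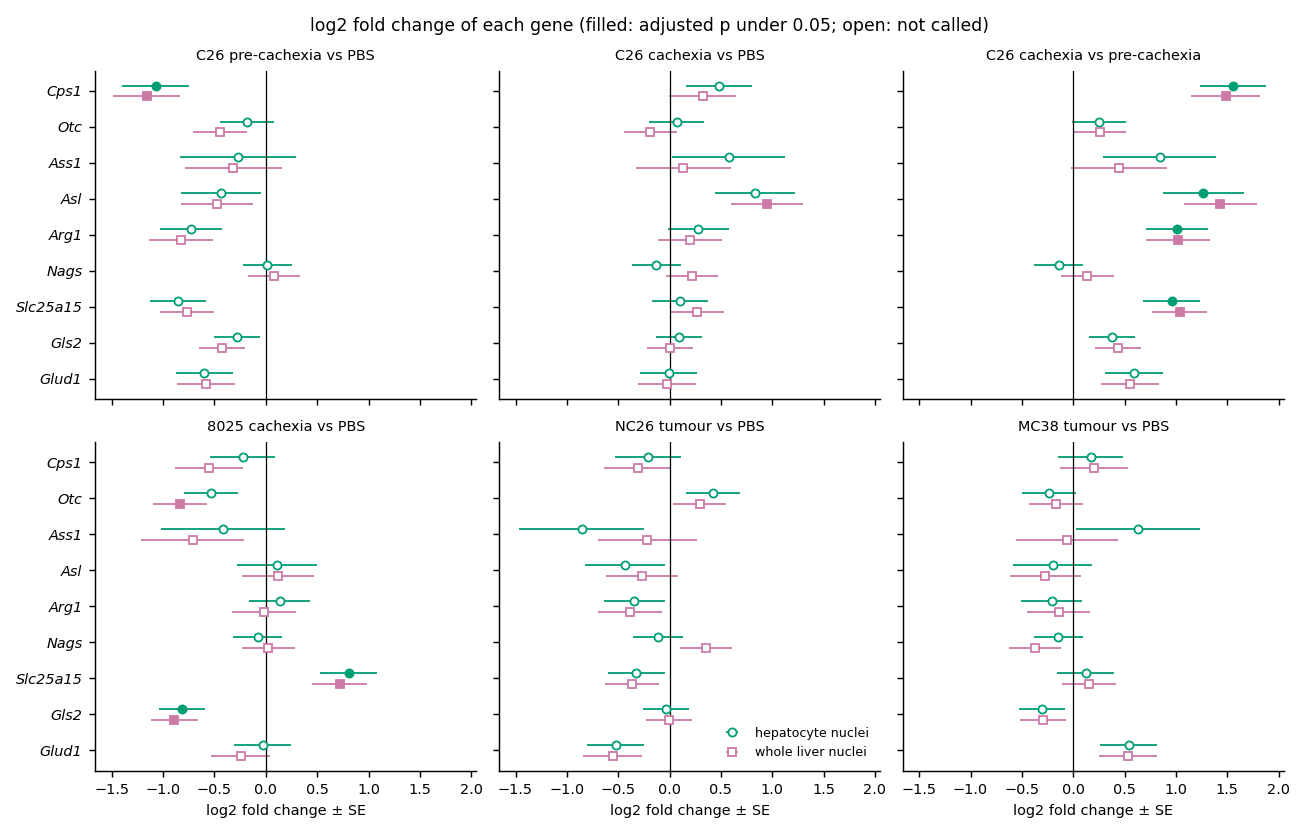
log2 fold change ± SE of the 9 genes in the 6 tumour comparisons, in hepatocyte nuclei (green circles) and whole liver nuclei (pink squares); filled symbols have an adjusted p under 0.05. Filled symbols are most frequent at C26 cachexia against pre-cachexia, with 4 genes in each fraction, and absent in the NC26 and MC38 panels.

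In the 8025 cohort, the second cachexia model, Slc25a15 was higher and Gls2 lower than in PBS animals in both fractions, and Otc was lower in whole liver nuclei. Slc25a15 had 233.6, 205.3, 337 and 213.1 CPM in hepatocyte nuclei of cachexia animals, against 157.9, 136.2, 99.61 and 170.6 CPM in PBS animals. The groups did not overlap, and the carrier rose 1.75-fold (log2 fold change 0.81, SE 0.277, adjusted p = 0.027; 29.3% of genes tested were called). These PBS animals averaged 141.1 CPM, below the 216 CPM of MC38 PBS animals of the same strain. The MC38 PBS libraries, at 159.4 to 247.8 CPM, overlapped those of 8025 cachexia. Slc25a15 in whole liver nuclei had 201.5, 194.7, 272.8 and 179.3 CPM at cachexia, against 143.4, 125.8, 96.37 and 149.3 CPM in PBS animals, again without overlap (0.72, SE 0.267, adjusted p = 0.034; 36.6% of genes tested were called). Both calls were lost without PBS animal 2 or 3 or cachexia animal 3 (adjusted p up to 0.13 and 0.11).

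Gls2, which frees ammonia from glutamine, had 244.4, 142, 99.15 and 150.1 CPM in hepatocyte nuclei of 8025 cachexia animals, against 255.4, 185.6, 318.6 and 359.1 CPM in PBS animals. Cachexia animal 1 lay within the PBS range and the other 3 below it. Gls2 fell to 158.9 ± 61.2 CPM, against 279.7 ± 75.9 CPM in PBS animals (SD, n = 4 each; log2 fold change -0.81, SE 0.227, adjusted p = 0.007). Whole liver nuclei gave 191.3, 116.6, 78.97 and 120.2 CPM at cachexia, against 181.5, 165.5, 301.3 and 291.1 CPM in PBS animals (log2 fold change -0.89, SE 0.226, adjusted p = 0.0025). These were the calls of this cohort that stood whichever animal was left out (adjusted p up to 0.041 and 0.022). Otc had 348.7, 262, 184.2 and 267.7 CPM in whole liver nuclei at cachexia, against 627.1, 367.6, 306.6 and 590.5 CPM in PBS animals. Cachexia animal 1 overlapped the PBS range, and Otc fell 1.78-fold (log2 fold change -0.83, SE 0.262, adjusted p = 0.013; lost without PBS animal 1 or cachexia animal 3, adjusted p up to 0.067). In hepatocyte nuclei Otc had 352.4, 268.2, 201 and 287.9 CPM at cachexia, against 373.5, 370.2, 292.4 and 572.1 CPM in PBS animals (log2 fold change -0.54, adjusted p = 0.13). The difference between the fractions in this effect was 0.30 (SE 0.166, adjusted p = 0.38) with the animal as a block, and was not called without the block either.

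Cps1 averaged 4587 ± 1439 CPM in hepatocyte nuclei at 8025 cachexia and 5361 ± 254.4 CPM in PBS animals (SD, n = 4 each), a log2 fold change of -0.22 with a 95% interval of -0.85 to 0.40. Arg1 averaged 455.2 ± 83.2 CPM at cachexia and 414.4 ± 116.7 CPM in PBS animals (SD, n = 4 each; log2 fold change 0.14). Asl was high in cachexia animal 1 alone, at 783.1 CPM, beside 313 to 320.5 CPM in the other 3 cachexia animals and 308.5 to 579.9 CPM in PBS animals. Nags and Glud1 had log2 fold changes of -0.08 and -0.03, and Ass1 of -0.41 on 2 to 28 counts per cachexia library. The median of the 9 was -0.0793, beside -0.017 for all genes, in hepatocyte nuclei.

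**Figure D4:**
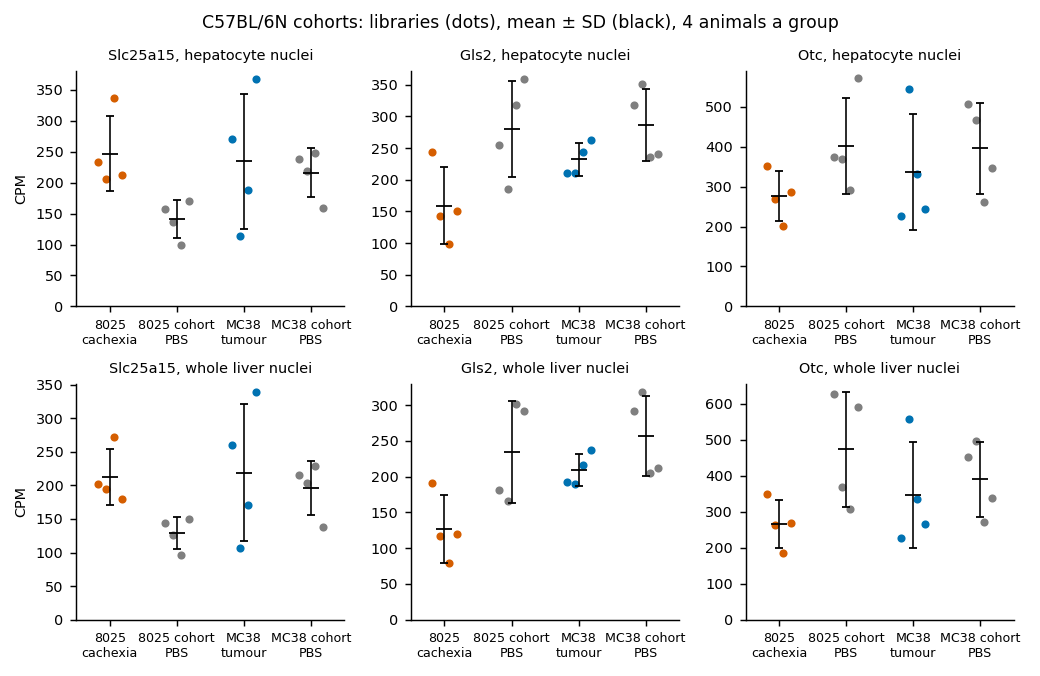
Level (CPM, axes from 0) of Slc25a15, Gls2 and Otc in the C57BL/6N cohorts, in hepatocyte nuclei (upper panels) and whole liver nuclei (lower panels); dots are libraries and black bars mean ± SD of 4 animals. Slc25a15 libraries at 8025 cachexia lie above all PBS libraries of that cohort, and MC38 tumour animals spread from 113.3 to 367.9 CPM in hepatocyte nuclei.

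The same 5 lists were counted at 8025 cachexia. The share of all genes tested that were called there was 29.3% in hepatocyte nuclei. Of 11 ammonia and glutamine genes 4 rose and 1, the glutamine carrier Slc38a3, fell (-0.86, adjusted p = 0.023). Glul rose to 289.5 ± 115.7 CPM at cachexia, against 121.9 ± 31.5 CPM in PBS animals (SD, n = 4 each; log2 fold change 1.25, SE 0.21, adjusted p = 4.3e-05). Slc1a4 and Slc1a5, carriers of small neutral amino acids and glutamine, had log2 fold changes of 2.18 (adjusted p = 0.001) and 1.79 (adjusted p = 0.0016). Of 8 genes of mitochondrial transport and bicarbonate 0 rose and 3 fell: Car5a, the mitochondrial carbonic anhydrase that supplies bicarbonate to Cps1 (-0.71, adjusted p = 0.013), Slc25a13 (-0.62, adjusted p = 0.011) and Sirt5, the deacylase that acts on Cps1 (-0.40, adjusted p = 0.025). Of 12 arginine, ornithine and proline genes 5 rose and 3 fell. Aldh18a1, which makes the precursor of proline and ornithine, averaged 2.22 ± 0.951 CPM at cachexia and 0.827 ± 0.387 CPM in PBS animals (SD, n = 4 each; adjusted p = 0.006). The arginine importer Slc7a1 averaged 2.69 ± 1.79 CPM at cachexia and 1.10 ± 0.867 CPM in PBS animals, with a log2 fold change of 1.44 (adjusted p = 0.032), and Oat, the ornithine aminotransferase, of 1.35 (adjusted p = 0.036). The genes that fell were Slc7a2, Odc1 and Aldh4a1. Slc7a2, the main cationic amino acid importer of the liver, averaged 1657 ± 491.2 CPM at cachexia and 3757 ± 1679 CPM in PBS animals (SD, n = 4 each; log2 fold change -1.18, adjusted p = 0.023), and in whole liver nuclei 1432 ± 458.5 CPM at cachexia and 3750 ± 1592 CPM in PBS animals (-1.39, adjusted p = 0.0057). Odc1, which makes putrescine from ornithine, had -1.06 (adjusted p = 0.0028) and Aldh4a1, of proline breakdown, -0.49 (adjusted p = 0.036). The summed level of this list in hepatocyte nuclei was 1911 to 3167 CPM at cachexia and 2377 to 6450 CPM in PBS animals. Of 7 transaminase and cycle carbon genes 0 rose and 2 fell, both malate dehydrogenases, Mdh1 (-0.88, adjusted p = 6.7e-06) and Mdh2 (-0.52, adjusted p = 0.025). Got1 had 313.2 ± 112.8 CPM at cachexia and 211.7 ± 75.5 CPM in PBS animals (SD, n = 4 each; adjusted p = 0.5). Of 10 regulators, Cebpb rose (0.94, adjusted p = 0.022) and Cebpa fell to 7.64 ± 3.96 CPM at cachexia, against 24.54 ± 2.07 CPM in PBS animals (SD, n = 4 each; log2 fold change -1.68, SE 0.28, adjusted p = 3.6e-05).

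Markers of other cells differed between 8025 groups as well. The summed level of 10 macrophage markers in hepatocyte nuclei was 130.7 to 163.7 CPM at cachexia and 44.54 to 55.72 CPM in PBS animals, with 8 of 10 called higher. The 8 monocyte and neutrophil markers summed to 10.92 to 15.05 CPM at cachexia and 0.969 to 1.82 CPM in PBS animals, with 3 of 3 tested called higher and 1 of the 8 at 0 in the cachexia group. In the whole liver fraction they summed to 71.38 to 100.2 CPM at cachexia and 6.47 to 9.94 CPM in PBS animals. Endothelial markers summed to 197.3 to 294.5 CPM at cachexia and 123.1 to 193.7 CPM in PBS hepatocyte nuclei, with 2 of 10 called higher. Stellate markers summed to 43.73 to 62.41 CPM at cachexia and 78.29 to 104.5 CPM in PBS animals, with 2 of 8 called higher and 1 lower. Cholangiocyte sums overlapped, at 179.8 to 551.7 CPM at cachexia and 200.9 to 270.1 CPM in PBS animals, with 5 of 7 called higher. The summed level of 7 hepatocyte markers was 6698 to 8619 CPM at cachexia and 6739 to 8232 CPM in PBS animals. Of 10 periportal genes 4 were called higher and 2 lower, and of 12 pericentral genes, Glul and Oat among them, 4 higher and 1 lower. The part of these markers in the changes of Slc25a15, Gls2 and Otc was not tested.

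**Figure D5:**
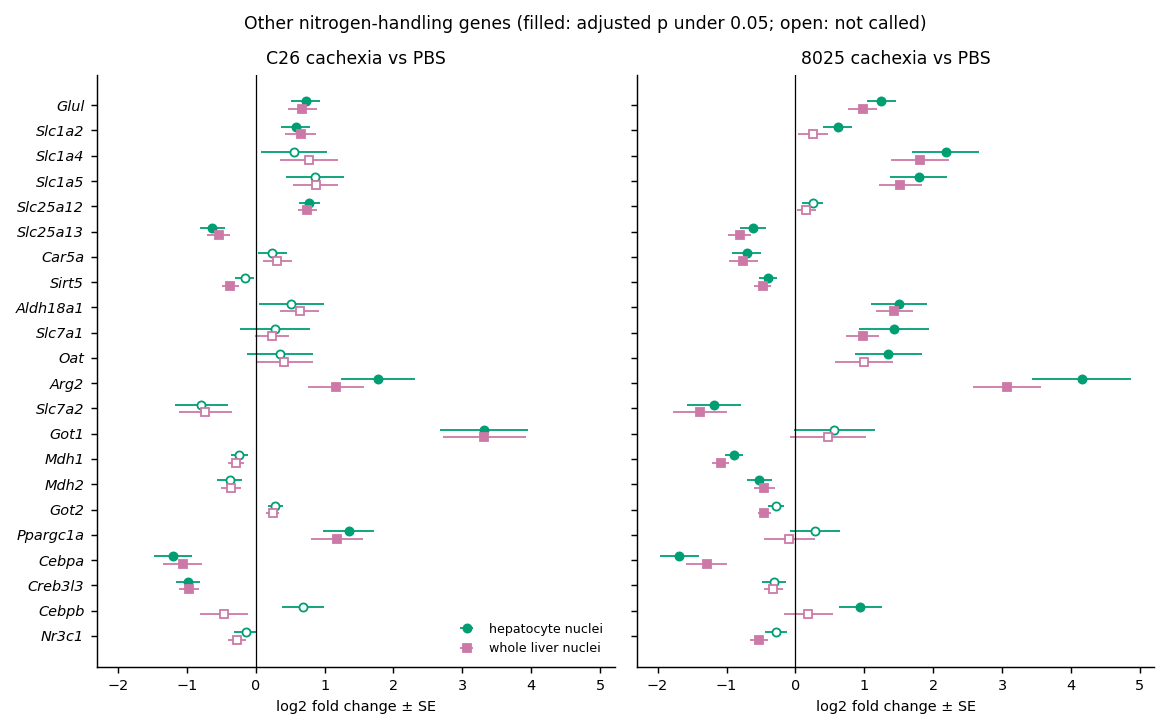
log2 fold change ± SE of 22 other nitrogen-handling genes and regulators at C26 cachexia and 8025 cachexia, each against PBS animals of its cohort, in hepatocyte nuclei (green circles) and whole liver nuclei (pink squares); filled symbols have an adjusted p under 0.05. Glul lies above 0 and Slc25a13 and Cebpa below 0 in both cohorts and fractions, and Got1 reaches 3.31 in C26 hepatocyte nuclei.

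Animals with weight-stable tumours were compared with PBS animals of their own cohort. edgeR called 0 of the 9 genes in the NC26 cohort in either fraction, where 0.324% (hepatocyte) and 0.728% (whole liver) of genes tested were called, and 0 in the MC38 cohort, where 0% were called in both. None of the 9 had an unadjusted p under 0.05 in either cohort, and DESeq2 called 0. Cps1 had 2216, 7846, 7781 and 3921 CPM in NC26 hepatocyte nuclei, against 7941, 6138, 6482 and 4644 CPM in PBS animals. NC26 animals 1 and 4 were low and animals 2 and 3 high for Cps1, and the same split held for Asl, at 171.6, 390.3, 288.7 and 149.9 CPM. Otc ran the other way in these animals, at 848.2, 590.7, 609.1 and 908 CPM, against 483.7, 421.7, 676.5 and 616.8 CPM in PBS animals (log2 fold change 0.43, 95% interval -0.09 to 0.95). Glud1 averaged 532.2 ± 168.8 CPM in NC26 tumour animals and 765.3 ± 100.3 CPM in PBS animals (SD, n = 4 each; log2 fold change -0.52, adjusted p = 0.45). In hepatocyte nuclei 8 of 9 log2 fold changes were below 0, with a median of -0.324 beside -0.0018 for all genes.

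In the MC38 cohort log2 fold changes in hepatocyte nuclei ran from -0.30 (Gls2) to 0.63 (Ass1), with a median of -0.147 beside 0.0062 for all genes. Glud1 averaged 777.5 ± 250.2 CPM in MC38 tumour animals and 534 ± 95.1 CPM in PBS animals (SD, n = 4 each; log2 fold change 0.54, 95% interval -0.002 to 1.09, adjusted p = 1). Arg1 had 701.6, 177.9, 543.5 and 763.9 CPM in MC38 tumour animals, and animal 2 was the lowest of all 36 hepatocyte libraries. Among the other nitrogen genes, 0 were called in any of the 5 lists in either weight-stable cohort in hepatocyte nuclei. With 4 animals a group the 95% interval of a log2 fold change of Cps1 in hepatocyte nuclei spanned -0.84 to 0.41 in the NC26 cohort and -0.46 to 0.79 in the MC38 cohort.

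The tests of whether a cachexia tumour acted differently from a weight-stable tumour of the same strain, or C26 from 8025, called 0 of the 9 genes in any of these contrasts by edgeR or DESeq2. For C26 minus NC26, 1.89% (hepatocyte) and 3.4% (whole liver) of genes tested were called. Asl was the 1 gene with an unadjusted p under 0.05, where the log2 fold changes differed by 1.26 (SE 0.549, adjusted p = 0.25) and 1.22 (SE 0.495, adjusted p = 0.19). For 8025 minus MC38 the shares were 7.21% and 13.5%, and 0 of the 9 had an unadjusted p under 0.05. The difference for Slc25a15 was 0.69 (95% interval -0.08 to 1.45) and for Gls2 -0.51 (95% interval -1.14 to 0.11) in hepatocyte nuclei. For C26 minus 8025 cachexia the shares were 0.957% and 6.57%, and Gls2 was the 1 gene with an unadjusted p under 0.05, at a difference of 0.91 (SE 0.319, adjusted p = 0.17) and 0.90 (SE 0.318, adjusted p = 0.086). Without C26 PBS 1 the hepatocyte differences were 1.60 for Asl against NC26 (adjusted p = 0.097) and 0.91 for Gls2 against 8025 (adjusted p = 0.19). Without 8025 cachexia animal 1 the Gls2 difference passed the threshold in both fractions (adjusted p = 0.04 and 0.015).

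PBS animals of the strains differed in Gls2. It averaged 176.9 ± 19.5 CPM in hepatocyte nuclei of BALB/c PBS animals and 283 ± 62.4 CPM in C57BL/6N PBS animals (SD, n = 8 each), which gave -0.68 on the log2 scale (SE 0.16, adjusted p = 0.001). In whole liver nuclei the log2 fold change was also -0.68 (SE 0.159, adjusted p = 0.0011), and neither call depended on any single animal. The share of genes tested that were called was 41.2% in hepatocyte and 39.6% in whole liver nuclei, and 3 of the 9 genes and 1 of the 9 were called. In hepatocyte nuclei Otc was also higher in BALB/c (0.48, SE 0.187, adjusted p = 0.038) and Nags lower (-0.43, SE 0.17, adjusted p = 0.044). Those calls were lost without any one of 9 and of 11 of the 16 PBS animals (adjusted p up to 0.095 and 0.13), and without C26 PBS 1 Nags was at -0.60 (adjusted p = 0.0024). Library numbers in the labels run in 1 series for C26 and 8025 and in another for NC26 and MC38. Within them Gls2 had -0.57 (adjusted p = 0.068; 20.6% of genes tested called) and -0.79 (adjusted p = 0.0097; 28.2%) in hepatocyte nuclei, -0.61 (adjusted p = 0.042; 27.2%) and -0.75 (adjusted p = 0.019; 18%) in whole liver nuclei. Nags had -0.13 (adjusted p = 0.75) in the first series and -0.72 (adjusted p = 0.024) in the other, and Otc had 0.49 and 0.47 (adjusted p = 0.19 in each). The hepatocyte values of the first series include C26 PBS 1 and were not refitted without it. In C26 PBS hepatocyte nuclei Nags had a median of 12.98 CPM and a highest library of 24.55 CPM. A difference between the series in Nags is therefore not read from these values.

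Between the fractions of the 16 PBS animals 4 of the 9 genes were higher in hepatocyte nuclei, in a comparison that called 50.9% of genes, 26.4% as higher. Nags averaged 15.89 ± 4.79 CPM in hepatocyte nuclei and 11.17 ± 2.96 CPM in whole liver nuclei (SD, n = 16 each; log2 fold change 0.50, SE 0.127, adjusted p = 0.00073). Asl (0.49, adjusted p = 0.029), Slc25a15 (0.35, adjusted p = 0.032) and Gls2 (0.34, adjusted p = 0.011) were each higher in hepatocyte nuclei in 16 of 16 animals, beside a median of 0.077 for all genes. Asl was not called without C26 PBS animal 1 (adjusted p = 0.09) and Slc25a15 not without NC26 PBS animal 4 (adjusted p = 0.052). Both libraries of an animal carry its number in the labels, and with the animal as a block 7 of the 9 were called higher. The shares of all genes given above are from the fit without the block. Nothing particular to the 9 genes is therefore read from the count with it. The block added Arg1 (0.29, SE 0.0285, adjusted p = 9e-11), Glud1 (0.20, SE 0.0306, adjusted p = 7.6e-07) and Cps1 (0.15, SE 0.0509, adjusted p = 0.011). Otc and Ass1 were not called. The tumour effects on the 9 genes were not called different between fractions in any of the 6 comparisons, by edgeR or DESeq2 without a block, with 0 unadjusted p under 0.05, where at most 0.0427% of genes tested were called. With the animal as a block 0 of the 9 were called in each of the 6, and the lowest adjusted p at 8025 cachexia was that of Glud1 (difference 0.23, SE 0.0867, adjusted p = 0.21). A missed threshold does not show that the fractions respond alike.

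The genes whose level across the 36 hepatocyte libraries was most like that of each of the 9, by Pearson correlation of log2 CPM over 9068 genes averaging 5 CPM or more, are given as a description, since libraries share depth and strain. Asl was most like Crcp (r = 0.95), which lies 4.97 kb away on the opposite strand. Glud1 was most like Fam35a (r = 0.82), which lies 0.223 kb away on the opposite strand. Arg1 and Slc25a15 shared Tat, the tyrosine aminotransferase, among their 3 most alike genes (r = 0.85 and 0.73). Nags was most like Dvl1 (r = 0.90) and Gpt, the alanine aminotransferase (r = 0.89), and Gls2 was most like Marc1 (r = 0.79). For Otc the most alike were Pcmtd1, Zdhhc9 and Maob (r = 0.90, 0.89 and 0.89), and for Cps1 Tmem131 (r = 0.75). Of the 27 most alike genes 11 lay on the chromosome of their partner and 2 within 100 kb. Among the 9 genes themselves the 36 pairwise correlations had a median r of 0.22, from -0.51 to 0.64.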

How the data were processed

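The deposited values were read counts per gene in 72 libraries, a whole-number count table that the authors made from stranded, 50-base paired-end total RNA reads of nuclei, per the labels' protocols. The submitters' processing notes name STAR 2.4.2a, DESeq2 1.24.0 and mm10. Per the file headers, each gene has a counted length, which equals the span of the gene with its introns in 8 of the 9 genes, so unspliced RNA can contribute.

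The 9 genes and all gene lists were chosen with earlier results of these data known. Each fraction (36 libraries, 9 groups) was fitted on its own, and both together (72 libraries, 18 groups) for fraction tests, with edgeR 4.0.16 in R 4.3.3: filterByExpr by group, TMM scaling, quasi-likelihood F test, Benjamini-Hochberg adjustment over all 13274 (hepatocyte), 13738 (whole liver) or 14054 (joint) genes tested, called under 0.05. All 9 genes were described in every comparison, and other genes from lists by role. CPM used TMM-scaled library sizes. DESeq2 1.42.0, other scaling, filters, blocks and left-out animals were alternatives. The 2 libraries of an animal deviated together (median r 0.69, 35 of 36 pairs over 0.1, lowest r -0.26). The test was also run on simulated counts, and its recovery and false calls are not given here. Those counts were drawn independently for each library, so the shared deviation of an animal's 2 libraries was not simulated.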

Additional observations from a re-analysis of the deposited data

Results flagged for a closer look

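In 12 of 162 groups of 4 libraries, 1 library lay far from the other 3 by Dixon's criterion for its gap over the range, where chance gives about 1 in 20. Asl was high in 8025 cachexia animal 1 in hepatocyte nuclei (783.1 CPM, others 313 to 320.5) and in whole liver nuclei (573.7 CPM, others 211.7 to 273.2). Asl was also high in MC38 PBS animal 3 in both fractions (976.4 CPM, others 477.1 to 501.6, and 794.4 CPM, others 404.4 to 453.1). Slc25a15 in hepatocyte nuclei was high in C26 pre-cachexia animal 1 (157.6 CPM, others 120 to 122.6) and in C26 PBS animal 4 (305.1 CPM, others 205.7 to 218.4). Ass1 was high in hepatocyte library C26 PBS 1 (1.817 CPM, others 0.6 to 0.7358). In whole liver nuclei Cps1 was high in C26 pre-cachexia animal 1 (4928 CPM, others 2413 to 2835) and 8025 PBS animal 1 (8363 CPM, others 4984 to 5443). C26 pre-cachexia animal 3 was low for Otc (322.8 CPM, others 527.6 to 565.1) and high for Glud1 (795.3 CPM, others 325 to 391.6), and C26 PBS animal 1 was low for Nags (6.64 CPM, others 10.45 to 11.15).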

How the results depend on the processing

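Over all alternatives, 3396 of 3501 single-gene values kept their side of the threshold, 83 lost a call and 22 gained one. Only the 396 values of genes called in the reported test could lose a call, and 83 of these 396 did. The sign differed in 162 of them, and in 0 of the 396 values of genes called in the reported test. The causes of the changes below were not tested, and every count is of the 9 genes. Counts over all genes under each alternative are not given beside them, so no change is read as particular to the 9. For C26 pre-cachexia against PBS animals in hepatocyte nuclei (1 gene called), DESeq2 size factors gave 2, the DESeq2 test 2, a fit of only the groups compared 2 and the replicate block 0. In whole liver nuclei (1 called) these gave 2 with DESeq2 size factors, 3 with the DESeq2 test and 2 with only the groups compared, and 2 came without 5 genes with rRNA-like reads. For C26 cachexia against pre-cachexia in hepatocyte nuclei (4 called), the replicate block gave 2 and only the groups compared 2. For C26 cachexia against PBS animals in whole liver nuclei (1 called), no filter, leaving out the rRNA-like genes, the replicate block and only the groups compared each gave 0. For 8025 in hepatocyte nuclei (2 called) only the groups compared gave 1, with Gls2 at adjusted p = 0.065. The strain comparison in hepatocyte nuclei (3 called) gave 0 for C26 PBS against 8025 PBS alone. Between fractions (4 called) no filter gave 2 and the animal as replicate block 7.

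With each animal left out in turn, counts ran from 0 to 1 for C26 cachexia against PBS animals in both fractions, from 0 to 2 at pre-cachexia in both, and from 1 to 4 (hepatocyte) and 2 to 4 (whole liver) at cachexia against pre-cachexia. They ran from 1 to 2 and 1 to 3 for 8025, from 1 to 3 and 1 to 1 between strains, from 3 to 4 between fractions and from 0 to 1 for C26 minus 8025 in both fractions. The tumour effect by fraction was not refitted with animals left out.

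Over all comparisons, same-numbered animals of different groups did not deviate together (median r -0.0013, 13 of 48 over 0.1), and the reported tests do not pair them. For C26 pre-cachexia and PBS animals r was above 0 for every number. It was 0.26, 0.13, 0.059 and 0.46 in hepatocyte nuclei and 0.056 to 0.19 in whole liver nuclei. So few pairs do not decide whether those animals were paired. With the replicate block Cps1 at pre-cachexia in hepatocyte nuclei had an adjusted p of 0.079. The short counted length of 79 bases limits Ass1, with 2 to 69 counts per hepatocyte library.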

Other observations

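The genes that lie next to members of the pathway had values of their own in the C26 cohort. Crcp, 4.97 kb from Asl on the opposite strand, was higher at cachexia than at pre-cachexia in hepatocyte nuclei (log2 fold change 0.76, adjusted p = 0.024 by edgeR) and in whole liver nuclei (0.69, adjusted p = 0.016). Against PBS animals Crcp was higher at cachexia in whole liver nuclei (0.53, adjusted p = 0.042). Fam35a, 0.223 kb from Glud1 on the opposite strand, was lower at pre-cachexia than in PBS animals (-1.05, adjusted p = 0.028, and -1.14, adjusted p = 0.016 in whole liver nuclei) and higher at cachexia than at pre-cachexia (1.41, adjusted p = 0.0024, and 1.33, adjusted p = 0.0055). Glud1 itself passed neither test with all animals. These neighbours were named after their values were seen, and how strand was used in counting was not stated.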
